A study of Mus musculus with 24 samples.

Results

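A set of 10 marker genes of the brain's non-neuronal cells was followed across neuronal cultures: the astrocyte genes Gfap, Aqp4, Slc1a3 and Aldh1l1, the oligodendrocyte lineage genes Cnp, Olig2 and Cspg4, and the vascular genes Dcn, Flt1 and Cldn5. These are 10 of the 18194 genes that the arrays measured by at least 1 probe set naming a single gene. Each gene was read from the probe set with the highest mean over all 24 arrays, and its other probe sets served as a check. Values are log2 of the deposited RMA intensity, and a level is compared between arrays, never between genes. A gene was tested where it lay above the median of an array, 6.84 to 6.92 log2, on at least 2 arrays. Of the 10 genes, 9 passed this filter and were tested among 12378 genes. Cldn5 did not pass it and is described by its level.

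The cultures came from E14 mouse embryos of the C57Bl/6 background, littermates that were Npas4 knockout (KO) or wild type (WT). Npas4 is a transcription factor induced when neurons are active. Cells of the MGE (medial ganglionic eminence, the ventral forebrain region where many cortical inhibitory neurons arise) or of the CTX (cortex) were grown for 10 days in vitro per the sample labels, or 9 days before silencing per the series' design text. All groups were silenced overnight with TTX, a sodium channel blocker, and AP-5, an NMDA receptor blocker, and then held in 55 mM KCl, which depolarizes neurons, for 0, 1 or 6 h. The 12 groups were therefore MGE KO, MGE WT, CTX KO and CTX WT at each of the 3 times, with 2 arrays each, named repeat 1 and repeat 2. The labels do not say whether repeats came from separate cultures or animals, so p-values measure only the spread between these arrays. The labels call the cells neurons and give no step that removed or counted glial or vascular cells.

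In the brain, astrocytes take up transmitter and balance water and ions, oligodendrocytes and their precursors make myelin, and endothelial, mural and fibroblast cells build the vessels and meninges. Gfap encodes an astrocyte intermediate filament, Aqp4 a water channel of astrocyte endfeet, Slc1a3 the glutamate transporter GLAST and Aldh1l1 a folate enzyme used as an astrocyte marker. Cnp encodes a phosphodiesterase of myelinating cells, Olig2 a transcription factor of the oligodendrocyte lineage that ventral forebrain progenitors also use, and Cspg4 the NG2 proteoglycan of oligodendrocyte precursors and pericytes. Dcn encodes decorin, a matrix proteoglycan of fibroblasts, Flt1 a VEGF receptor of endothelium, and Cldn5 the tight junction protein claudin-5. In bulk RNA, fewer cells of a type and less RNA per cell cannot be told apart.

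Promoter sequence bears on the depolarization series, because the CRE (TGACGTCA), its shorter core (TGACG) and the NPAS4 core (TCGTG) are letters through which activity-dependent factors are known to act. RefSeq windows of 250 bases before the gene start on GRCm38.p6 were used for 8 of the 10 genes. A choice of 3 is shown 5′ to 3′, with the CRE or its shorter core in capitals: Cnp because it was the one gene of the 10 called after 6 h, Slc1a3 because further probe sets of it were called there, and Flt1 because its window was the one with a full CRE. The Cnp window is chr11:100574689-100574938 on the plus strand, the Slc1a3 window chr15:8710808-8711057 on the minus strand and the Flt1 window chr5:147726012-147726261 on the minus strand.
Cnp: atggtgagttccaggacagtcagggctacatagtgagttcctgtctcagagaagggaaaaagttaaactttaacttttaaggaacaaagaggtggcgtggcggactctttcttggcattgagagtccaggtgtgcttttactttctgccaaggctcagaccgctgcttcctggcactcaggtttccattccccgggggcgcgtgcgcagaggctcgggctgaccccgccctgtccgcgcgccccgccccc
Slc1a3: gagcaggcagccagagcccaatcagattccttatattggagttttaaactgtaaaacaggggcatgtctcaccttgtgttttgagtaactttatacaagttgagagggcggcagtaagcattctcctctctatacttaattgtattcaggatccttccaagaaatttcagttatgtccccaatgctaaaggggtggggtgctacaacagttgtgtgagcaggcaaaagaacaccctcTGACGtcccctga
Flt1: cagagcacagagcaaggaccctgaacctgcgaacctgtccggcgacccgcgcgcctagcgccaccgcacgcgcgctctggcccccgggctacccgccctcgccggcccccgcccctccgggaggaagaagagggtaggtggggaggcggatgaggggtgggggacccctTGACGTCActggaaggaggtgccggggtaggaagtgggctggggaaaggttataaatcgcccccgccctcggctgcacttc
On both strands, Flt1 held the CRE from position -81 counted back from the gene start, which also contains 2 overlapping copies of the shorter core. Slc1a3 held 1 shorter core at -13, and Cnp held neither. Among all 32851 windows of this length, 1.55% held a CRE, 17.8% its shorter core and 13.3% an NPAS4 core. The NPAS4 core was in 0 of the 8 windows. The looser E-box (CANNTG) was in 3 of the 8, those of Slc1a3, Aldh1l1 and Cnp, against 66.2% of all windows. These matches describe letters in a window and say nothing of factor binding.

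The labels and the arrays were checked first. Npas4 in KO arrays lay at 5.35 to 5.82 log2 intensity (0 h), 6.80 to 7.35 (1 h) and 6.80 to 7.82 (6 h), against 5.70 to 5.94 (0 h), 11.20 to 12.04 (1 h) and 8.59 to 11.84 (6 h) in WT arrays. The KO arrays were lower than the WT arrays at 1 h and 6 h. MGE minus CTX, averaged over the 6 matched groups, was 3.22 (log2, 9.35-fold) for the inhibitory neuron gene Slc32a1 and 1.78 for Gad1, against -8.71 for the excitatory neuron gene Neurod6 and -5.80 for Slc17a7, both of which passed the filter through CTX arrays only. Repeats correlated at r = 0.951 across genes in MGE WT at 0 h, where 1507 genes lay more than 2-fold apart, and at 0.965 to 0.992 in the other 11 groups, where 116 to 980 did. MGE WT 0 h thus stands apart, and CTX WT 6 h comes next, at r = 0.965 with 980 genes more than 2-fold apart.

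Aqp4, Slc1a3, Aldh1l1, Cnp and Olig2 were higher in MGE than in CTX cultures, and Gfap did not pass the test. These are the 6 genes that passed the filter through arrays of both cultures. Cspg4 and, by a small margin, Flt1 were also higher, but passed the filter through MGE arrays only, and Dcn was lower and passed it through CTX arrays only, so a difference was partly a condition of their being tested. Over all 10 genes, with no filter, 7 were higher, 1 lower and 2 did not pass, with a median difference of 0.73 (log2), against 72.2% of 18194 genes called and a median of 0.03. The comparison asks whether cultures of the 2 origins, made to contrast inhibitory with excitatory neurons, carry equal levels of non-neuronal transcripts. With the filter, too, most genes differed: 81.6% of all genes tested were called at an adjusted p under 0.05 (limma, Benjamini-Hochberg over all genes tested), 46.3% higher and 35.3% lower. With the 6 arrays of each repeat and culture type averaged into 1 value, 4 values in all, an alternative chosen after seeing the data, 5 of the 9 were called: Slc1a3, Aldh1l1, Cnp, Cspg4 and Dcn. That fit called 8190 of the 12378 genes tested. Without both MGE WT 0 h arrays and their CTX match, another such alternative, 8 of the 9 were called, as in the full comparison. Over all genes tested, 9975 were called there.

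**Figure D1:**
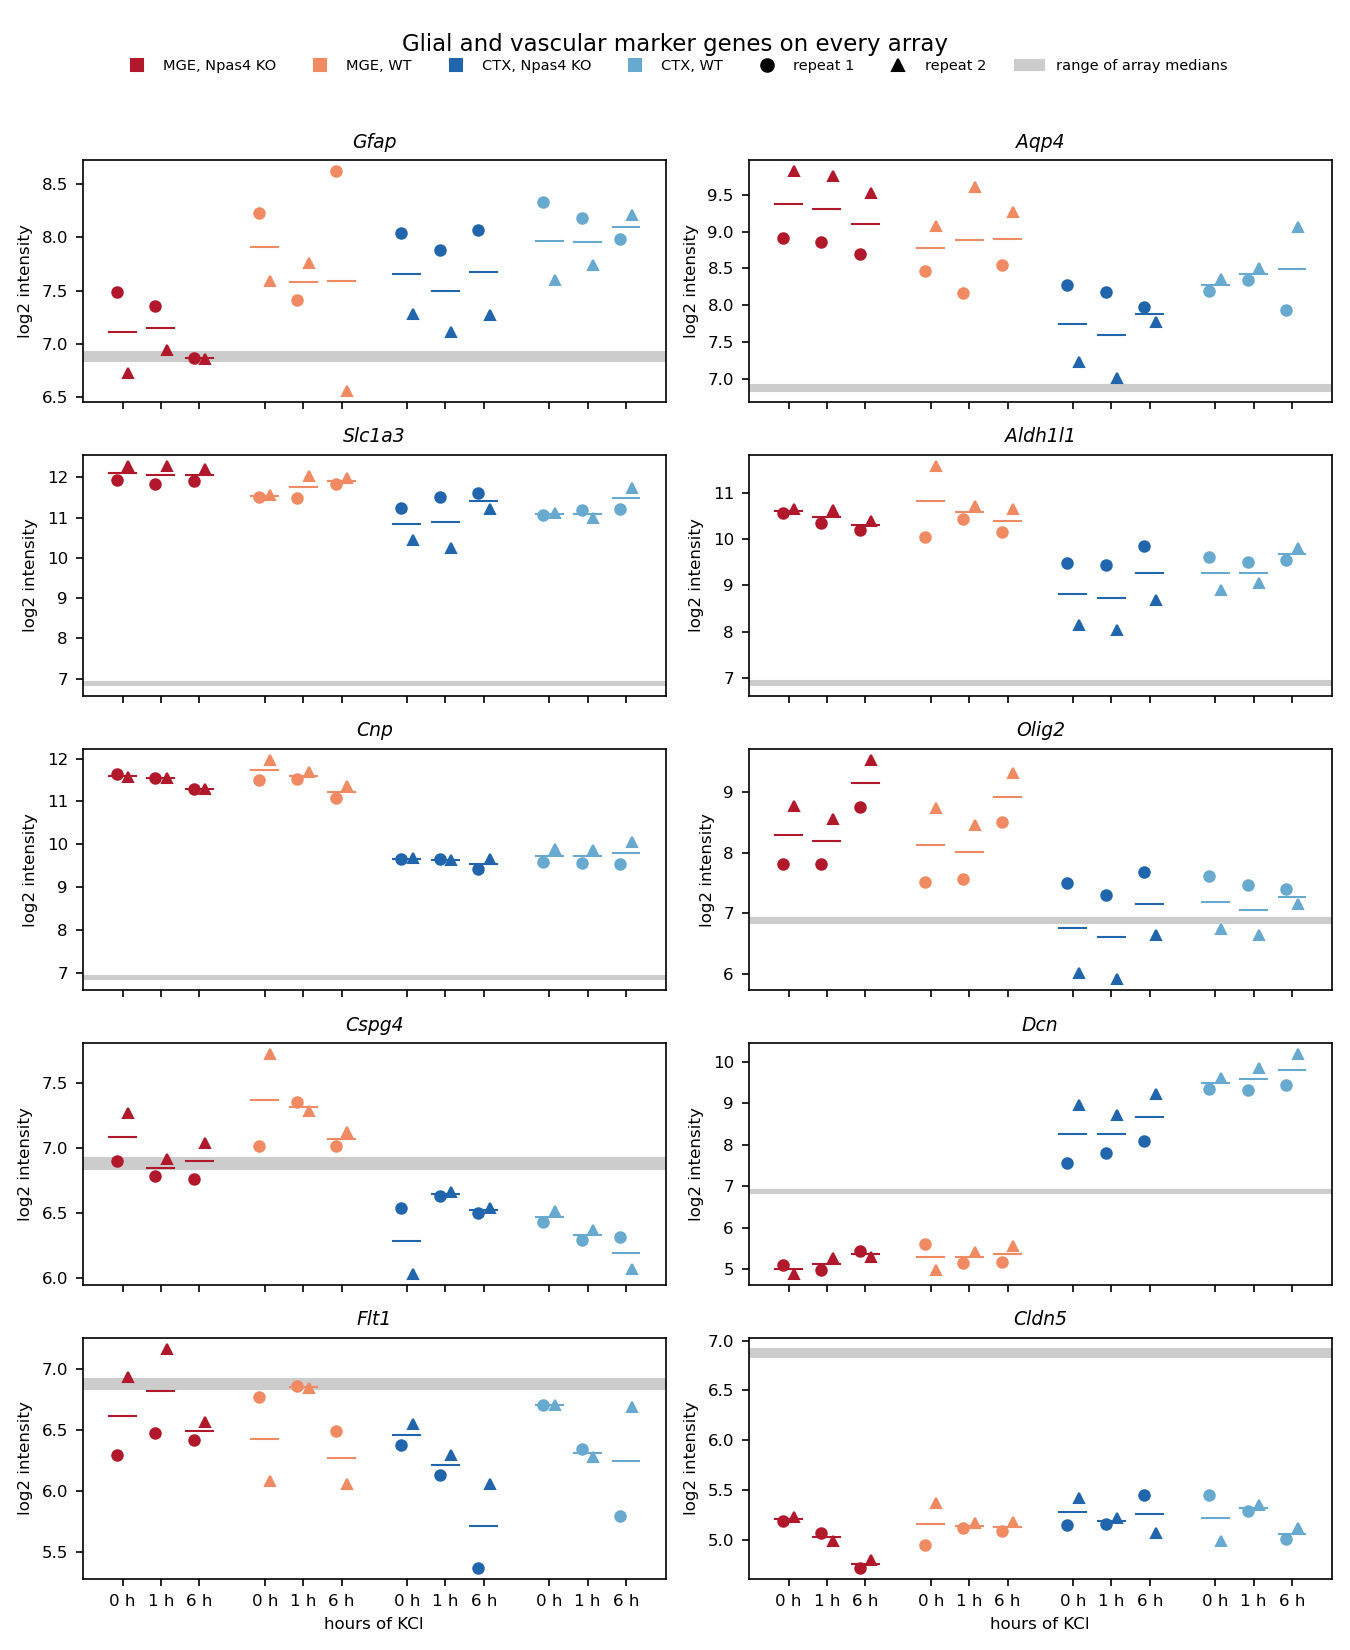
Log2 RMA intensity of each of the 10 genes on every array, by culture type, genotype and time of KCl, with 1 point per array, the 2 repeats marked apart, lines at group means and a grey band over the range of array medians. Dcn lies at 4.89 to 5.61 on MGE arrays and 7.55 to 10.18 on CTX arrays, Cnp runs the other way, and Cldn5 stays between 4.72 and 5.45 throughout.

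Among the astrocyte genes, Aldh1l1 separated the cultures most. Pairs of values are repeat 1 and repeat 2, as log2 intensity. Aldh1l1 in MGE KO cultures was 10.57 and 10.64 (0 h), 10.34 and 10.62 (1 h) and 10.19 and 10.40 (6 h). Aldh1l1 in MGE WT cultures was 10.04 and 11.59 (0 h), 10.44 and 10.71 (1 h) and 10.15 and 10.64 (6 h). The 11.59 of repeat 2 at 0 h was the highest of the 24 arrays. Aldh1l1 in CTX KO cultures was 9.48 and 8.13 (0 h), 9.43 and 8.03 (1 h) and 9.84 and 8.68 (6 h). Aldh1l1 in CTX WT cultures was 9.62 and 8.90 (0 h), 9.50 and 9.04 (1 h) and 9.54 and 9.81 (6 h). All 12 MGE arrays lay above all 12 CTX arrays. The difference was 1.36 ± 0.23 (log2, SE, 12 arrays each, 2.57-fold, adjusted p = 5.6e-05, limma).

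Aqp4 ran from 8.17 to 9.82 on MGE arrays (median 9.00) and from 7.01 to 9.06 on CTX arrays (median 8.19). The ranges overlapped, and the mean difference was 0.99 ± 0.23 (1.98-fold, adjusted p = 0.0011, limma). Slc1a3 ran from 11.49 to 12.29 on MGE arrays (median 11.92) and from 10.25 to 11.74 on CTX arrays (median 11.19), with a difference of 0.77 ± 0.14 (1.71-fold, adjusted p = 1.6e-04). Of the other Slc1a3 probe sets that could be tested, however, 2 did not pass and 1 was lower in MGE. By the probe sets used, Aldh1l1, Aqp4 and Slc1a3 were called whichever single array was left out.

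Gfap, the classical astrocyte marker, went the other way in its mean and did not pass the test. Gfap in MGE KO cultures was 7.49 and 6.73 (0 h), 7.36 and 6.94 (1 h) and 6.87 and 6.86 (6 h). Gfap in MGE WT cultures was 8.23 and 7.59 (0 h), 7.41 and 7.76 (1 h) and 8.62 and 6.56 (6 h). The 2 MGE WT 6 h arrays were the highest and the lowest of all MGE arrays. Gfap in CTX KO cultures was 8.04 and 7.28 (0 h), 7.88 and 7.11 (1 h) and 8.07 and 7.27 (6 h). Gfap in CTX WT cultures was 8.33 and 7.60 (0 h), 8.18 and 7.74 (1 h) and 7.98 and 8.21 (6 h). MGE and CTX arrays overlapped widely. The difference was -0.44 ± 0.22, with a 95% interval of -0.91 to 0.03 (adjusted p = 0.077, limma). Without repeat 1 of MGE WT at 6 h it was -0.61, with an adjusted p of 0.0036.

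The wider list of astrocyte genes was mixed. Of 14 listed, 13 were measured, and with no filter 6 were higher in MGE, 4 were lower and 3 did not pass, with a median of 0.07 against 0.03 over all genes. Clu, which encodes the secreted chaperone clusterin, was higher by 1.14 ± 0.12 (adjusted p = 6.8e-07), and Acsbg1, an acyl-CoA synthetase, by 1.01 ± 0.21 (adjusted p = 4.0e-04, limma). Sparcl1, which encodes the matrix protein hevin, was lower, at -1.41 ± 0.12 (adjusted p = 3.4e-08). The list had no single direction.

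Of the oligodendrocyte lineage genes, Cnp had the smallest error of the 9 tested genes. Cnp in MGE KO cultures was 11.63 and 11.58 (0 h), 11.55 and 11.54 (1 h) and 11.30 and 11.30 (6 h). Cnp in MGE WT cultures was 11.51 and 11.97 (0 h), 11.52 and 11.68 (1 h) and 11.08 and 11.35 (6 h). Every MGE array lay above 11. Cnp in CTX KO cultures was 9.65 and 9.68 (0 h), 9.65 and 9.63 (1 h) and 9.42 and 9.65 (6 h). Cnp in CTX WT cultures was 9.59 and 9.88 (0 h), 9.56 and 9.87 (1 h) and 9.53 and 10.04 (6 h). The ranges were over 1 log2 unit apart. The difference was 1.82 ± 0.07 (3.53-fold, adjusted p = 1.8e-11, limma).

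Olig2 varied more between arrays of 1 culture type. Olig2 in MGE KO cultures was 7.82 and 8.77 (0 h), 7.81 and 8.56 (1 h) and 8.76 and 9.53 (6 h). Olig2 in MGE WT cultures was 7.52 and 8.73 (0 h), 7.57 and 8.45 (1 h) and 8.51 and 9.31 (6 h). Repeat 2 and the 6 h arrays were the high ones. Olig2 in CTX KO cultures was 7.50 and 6.02 (0 h), 7.31 and 5.91 (1 h) and 7.68 and 6.64 (6 h). Olig2 in CTX WT cultures was 7.62 and 6.75 (0 h), 7.47 and 6.65 (1 h) and 7.40 and 7.15 (6 h). In CTX it was repeat 1 that was high, and the 2 culture types overlapped between 7.52 and 7.68. The difference was 1.44 ± 0.26 (2.71-fold, adjusted p = 1.3e-04, limma).

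Cspg4 ran from 6.76 to 7.72 on MGE arrays (median 7.02) and from 6.03 to 6.66 on CTX arrays (median 6.46), with no overlap. It was higher in MGE by 0.69 ± 0.08 (1.61-fold, adjusted p = 2.4e-06, limma), close to the array median of 6.84 to 6.92. On 10 of 12 MGE arrays and 0 of 12 CTX arrays it exceeded that median, so it was tested through its MGE values. Of 15 further oligodendrocyte genes, 14 were measured, and with no filter 3 were higher in MGE, 7 were lower and 4 did not pass, with a median of -0.15. The 3 that passed the filter were the higher ones: Ugt8a, an enzyme of myelin lipid synthesis, by 1.39 ± 0.21, Olig1 by 1.08 ± 0.26 and the myelin protein gene Mbp by 0.43 ± 0.14 (adjusted p = 2.5e-05, 0.0012 and 0.010). The other 11 measured genes were above the array median on 0 arrays, with a mean lower in MGE for 10 of them and higher for 1, among them Sox10 and Pdgfra, which define oligodendrocyte precursors, and Mag, Mog and Mobp, which encode myelin proteins.

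**Figure D2:**
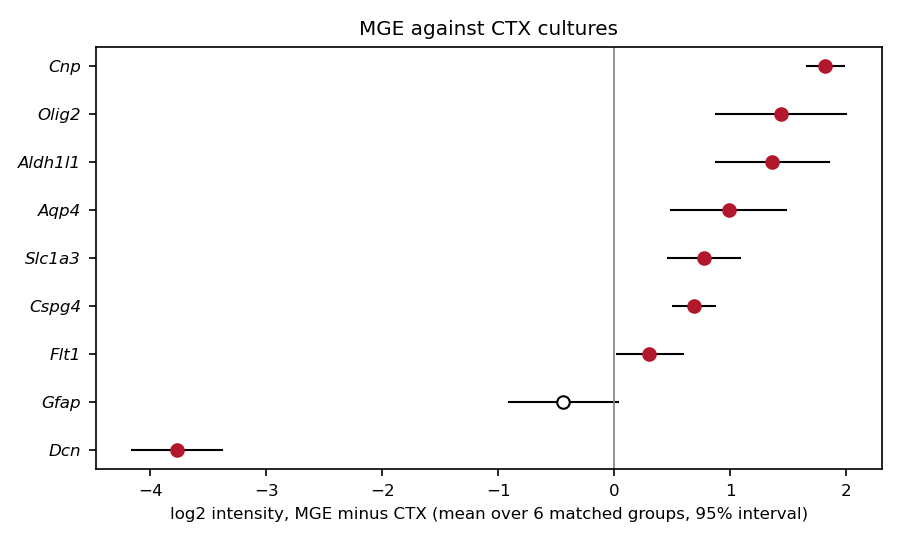
MGE minus CTX difference in log2 intensity for the 9 tested genes, averaged over the 6 matched groups, with 95% intervals and an open point where the test was not passed. Cnp stands at 1.82 and Dcn at -3.77, and the interval of Gfap, -0.91 to 0.03, includes 0.

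The vascular genes did not move together. Dcn in MGE KO cultures was 5.11 and 4.89 (0 h), 4.97 and 5.28 (1 h) and 5.43 and 5.29 (6 h). Dcn in MGE WT cultures was 5.61 and 4.98 (0 h), 5.15 and 5.42 (1 h) and 5.17 and 5.55 (6 h). All of these lie below the array median. Dcn in CTX KO cultures was 7.55 and 8.95 (0 h), 7.80 and 8.72 (1 h) and 8.10 and 9.23 (6 h). Dcn in CTX WT cultures was 9.35 and 9.60 (0 h), 9.32 and 9.84 (1 h) and 9.44 and 10.18 (6 h). Every CTX array was above the array median. The log2 difference was -3.77 ± 0.18 (adjusted p = 1.2e-10, limma). No background level was used here, so the MGE values may be bounds and no fold is given.

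Flt1 ran from 6.06 to 7.17 on MGE arrays (median 6.53) and from 5.37 to 6.71 on CTX arrays (median 6.32). The ranges overlapped, and 3 of 12 MGE arrays and 0 of 12 CTX arrays exceeded the array median. Its difference of 0.30 ± 0.13 (1.23-fold, adjusted p = 0.046, limma) lost the call in 18 of the 24 fits that each left out 1 array, with adjusted p-values of 0.011 to 0.098. Cldn5 ran from 4.72 to 5.37 on MGE arrays (median 5.11) and from 4.99 to 5.45 on CTX arrays (median 5.19), above the array median on 0 of 24. In count, 4 of the 9 tested genes had MGE and CTX arrays that did not overlap (Aldh1l1, Cnp and Cspg4 higher, Dcn lower), against 31.7% of all genes tested, 17.7% higher and 14.1% lower.

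Other vascular genes were likewise uneven. Of 12 endothelial genes 11 were measured, and with no filter 3 were higher in MGE, 2 were lower and 6 did not pass, with a median of -0.02. Slco1a4, an organic anion transporter of brain endothelium (adjusted p = 9.5e-12, limma), and Kdr, a VEGF receptor, at 1.02 ± 0.08, were higher and passed the filter through MGE arrays only. In the fit with the filter, which called 4 endothelial genes higher, the 2 that passed it through arrays of both cultures were among them. The larger was Slc2a1, a glucose transporter, at 0.47 ± 0.12 (adjusted p = 0.0015, limma). The smaller, at 0.19 ± 0.08 (adjusted p = 0.048, limma), was near the threshold. Slc2a1 was above the array median on all 24 arrays. Of the 11 measured, 6 were above it on 0 arrays, among them Pecam1, Cdh5, Tek, Tie1 and Emcn, which define endothelium. Of 8 mural genes, with no filter 4 were higher in MGE, 1 was lower and 3 did not pass, with a median of 0.49: the contractile genes Tagln and Acta2 were higher by 3.97 ± 0.17 (15.7-fold) and 3.61 ± 0.19 (12.2-fold). Of 8 fibroblast genes, with no filter 1 was higher, 4 were lower and 3 did not pass, with a median of -0.37. The collagen gene Col3a1 was at -1.49 ± 0.58 (adjusted p = 0.029) and Lum, a proteoglycan related to decorin, at -1.29 ± 0.32 (adjusted p = 0.0018), while Ogn was at 1.10 ± 0.31 (adjusted p = 0.0045). Lum passed the filter through CTX arrays only, and Ogn through MGE arrays only.

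Lists of progenitor, reactive glia, microglial and pan-neuronal genes were read beside these differences. Not all of them moved the same way, and their part in the differences was not tested. With no filter, 72.2% of all 18194 genes were called, with a median of 0.03. Of 11 neural progenitor genes, with no filter 7 were higher in MGE, 2 were lower and 2 did not pass, with a median of 1.30. Nes, the progenitor filament nestin, was higher by 2.87 ± 0.22 (7.33-fold) and Sox2 by 2.02 ± 0.18. The mean log2 level of that list was 9.20 to 9.83 on MGE arrays and 7.98 to 9.11 on CTX arrays. Of 8 genes of a reactive glia list, with no filter 7 were higher in MGE, 0 were lower and 1 did not pass, with a median of 1.71. Serpina3n, at 3.14 ± 0.14, and Cxcl10, at 2.85 ± 0.19, passed the filter through MGE arrays only, as did Osmr. The list's mean level was 7.36 to 8.23 on MGE arrays and 5.94 to 6.75 on CTX arrays. Of 8 microglial genes, with no filter 3 were higher, 2 were lower and 3 did not pass, with a median of 0.18. That list's mean level was 6.42 to 7.68 on MGE arrays and 5.99 to 6.63 on CTX arrays. Tyrobp was above the array median on 21 arrays, C1qb on 19 and Csf1r on 18, and Cx3cr1 and Itgam on 0. Of 8 pan-neuronal genes, with no filter 2 were higher in MGE, 5 were lower and 1 did not pass, with a median of -0.18. They averaged 13.05 to 13.26 on MGE arrays and 13.24 to 13.38 on CTX arrays.

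Within WT cultures before depolarization, 4 of the 9 genes were called between MGE and CTX, against 64.2% of all genes tested. Cnp was higher by 2.01 ± 0.18 (adjusted p = 1e-06), Cspg4 by 0.89 ± 0.21 (adjusted p = 0.0018) and Aldh1l1 by 1.56 ± 0.56 (adjusted p = 0.024), and Dcn was lower at -4.18 ± 0.45 (adjusted p = 4.7e-06, limma). Aqp4 at 0.50, Slc1a3 at 0.45 and Olig2 at 0.94 did not pass here. Aldh1l1 spanned 0.78 to 2.33 when 1 of the 4 arrays was left out, and lost its call without repeat 2 of either group. The pair of MGE WT 0 h arrays that stood apart is 1 side of this comparison, so it cannot be made without them.

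The repeats were ordered alike across the groups of a culture type for some genes and not for others. Olig2 was higher in repeat 2 than in repeat 1 in 6 of 6 MGE groups, by 0.75 to 1.20, and in 0 of 6 CTX groups, where repeat 2 minus repeat 1 was -1.48 to -0.25. Aldh1l1 was higher in repeat 2 in 6 of 6 MGE groups and 1 of 6 CTX groups, and Aqp4 in 6 of 6 and 3 of 6. In Dcn, repeat 2 was higher in 6 of 6 CTX groups, by 0.25 to 1.39, and in 3 of 6 MGE groups. Flt1 was higher in repeat 2 in 3 of 6 MGE and 4 of 6 CTX groups, and Cnp in 3 of 6 and 5 of 6. In at least 1 group, the repeat difference reached the size of the difference between culture types in Gfap, Aqp4, Slc1a3, Aldh1l1, Olig2, Cspg4 and Flt1. In Cnp the repeat differences stayed between -0.04 and 0.46 in MGE and between -0.02 and 0.51 in CTX, against a culture difference of 1.82. Those of Dcn reached at most 1.39, against a culture difference of -3.77.

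**Figure D3:**
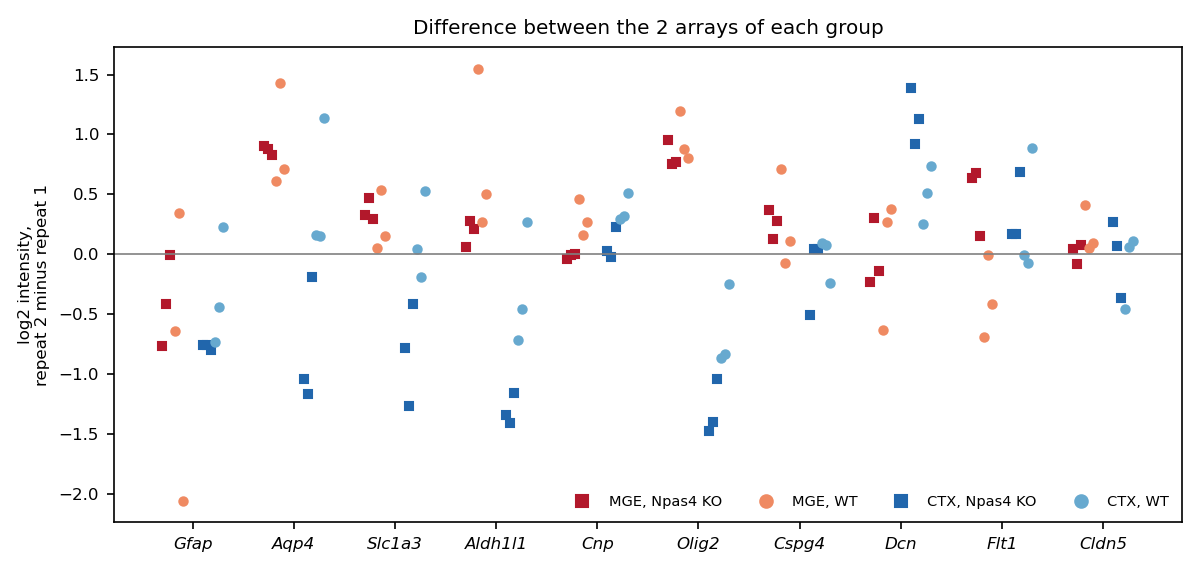
Repeat 2 minus repeat 1 in log2 intensity for each gene, with 1 point per group and MGE and CTX groups apart. The 6 MGE points of Olig2 lie at 0.75 to 1.20 and its 6 CTX points at -1.48 to -0.25.

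Likeness between genes was described by Pearson's r over the 24 arrays after the mean of each culture type was subtracted. These arrays share groups and repeats, so no p is given. Aqp4 and Slc1a3 ran together at r = 0.79, Slc1a3 and Olig2 at 0.69, Aldh1l1 and Olig2 at 0.66, and Aqp4 and Aldh1l1 at 0.61, while Gfap reached -0.06 to 0.34 with the other members. Among all genes tested, the closest to Slc1a3 were Gja1 (0.95), Mgst1 (0.94) and Mlc1 (0.94), to Aldh1l1 Gstm1 (0.95), Mfge8 (0.92) and Acsbg1 (0.92), and to Aqp4 Ttyh2 (0.95), Smpdl3a (0.91) and Fkbp9 (0.89). Olig2 was closest to Epas1 (0.91), Erap1 (0.89) and Olig1 (0.88), and Cnp to Spata24 (0.95), Zdhhc4 (0.87) and Gpx7 (0.87). Dcn was closest to Pdgfrb (0.69), Gfap to 4930555F03Rik (0.67), Cspg4 to Lims2 (0.74), Flt1 to Astn1 (0.77) and Cldn5 to Phf5a (0.78), all lower values than the closest of Aqp4, Slc1a3, Aldh1l1, Cnp and Olig2.

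Few of these genes passed the test after depolarization. After 1 h, 0 of the 9 were called in any of 5 comparisons, where the values ran from -0.40 to 0.42, 0 members had an unadjusted p under 0.05 and the lowest adjusted p was 0.81 (limma). The average over cultures and genotypes called 4.77% of all genes tested, and the single cultures called 0.574% in MGE WT, 0.444% in MGE KO, 0.864% in CTX WT and 1.10% in CTX KO. Without repeat 1 of MGE WT at 0 h, MGE WT called 1813 genes after 1 h, against 71. After 6 h, averaged over cultures and genotypes, Cnp was the 1 gene of the 9 called, lower by 0.23 on average (log2 difference -0.23 ± 0.09, adjusted p = 0.049, limma), against 53.6% of all genes tested, 18.5% higher and 35.1% lower. There, 2 members had an unadjusted p under 0.05. The median difference was 0.03 over the 9 genes and -0.08 over all genes tested.

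The Cnp decrease was near the threshold. In MGE WT, Cnp averaged 11.21 at 6 h and 11.74 at 0 h, and the arrays did not overlap, as in 57.3% of all genes tested, 34.2% lower (log2 difference -0.53 ± 0.18, adjusted p = 0.047, limma), against 25.3% of all genes called there. This call was lost without either 6 h array or without repeat 2 at 0 h, one of the pair that stood apart. It was kept without repeat 1 at 0 h, the other of that pair. Over these 4 fits, each with 1 array left in a group, the values ran from -0.76 (without repeat 1 at 0 h) to -0.30. The averaged call was lost in 11 of 16 fits that each left out 1 array, with values of -0.29 to -0.16. In MGE KO the difference was -0.30 ± 0.18 (adjusted p = 0.32), in CTX KO -0.12 ± 0.18 (adjusted p = 0.66) and in CTX WT 0.05 ± 0.18 (adjusted p = 0.86). The response in MGE minus that in CTX was -0.38 ± 0.18 (adjusted p = 0.14), and this difference between culture types did not pass, where 25.3% of all genes did.

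The largest positive values after 6 h were those of Olig2 in MGE. Olig2 differed by 0.85 ± 0.64 in MGE KO (adjusted p = 0.46), 0.78 ± 0.64 in MGE WT (adjusted p = 0.39), 0.40 ± 0.64 in CTX KO and 0.09 ± 0.64 in CTX WT, and by 0.53 ± 0.32 on average (adjusted p = 0.18, limma). Within each repeat of both MGE genotypes the 6 h array was the highest of the 3 times. Flt1 averaged 5.72 at 6 h and 6.47 at 0 h in CTX KO, a difference of -0.75 ± 0.32 (adjusted p = 0.087), and -0.37 ± 0.16 over all cultures (adjusted p = 0.066). Slc1a3 differed by 0.32 ± 0.18 on average (adjusted p = 0.14). No member was called in MGE KO, CTX WT or CTX KO, where 17.1%, 35.2% and 36.2% of all genes tested were.

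**Figure D4:**
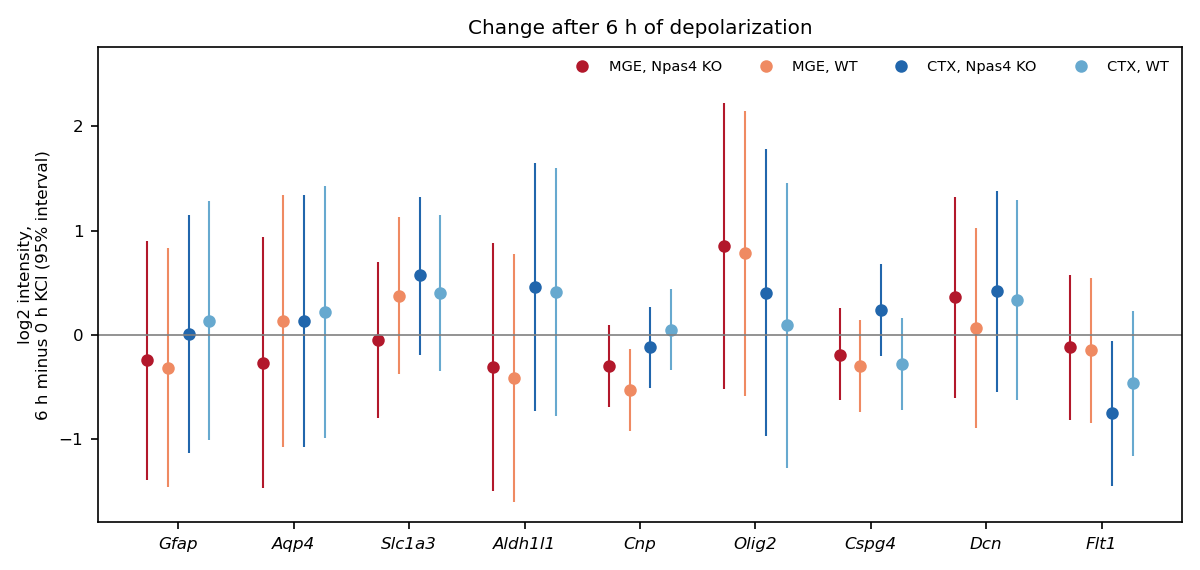
6 h minus 0 h difference in log2 intensity for the 9 tested genes in each culture type and genotype, with 95% intervals. Cnp in MGE WT, at -0.53, is the value that passes the test, and Olig2 at 0.85 in MGE KO and 0.78 in MGE WT has wide intervals.

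The wider glial, vascular and reactive lists held 35 tested genes, of which 3 were higher and 0 lower after 6 h on average. Among all genes tested, 18.5% were higher and 35.1% lower there. Sox9, a transcription factor of astrocytes and progenitors, was higher by 1.25 ± 0.22 (adjusted p = 2.4e-04, limma). It was also the 1 gene of these lists called after 1 h, at 1.39 ± 0.22 (adjusted p = 0.0012), against 4.77% of all genes tested. These averages came mostly from CTX. After 6 h Sox9 differed by 2.42 in CTX WT and 1.98 in CTX KO, but by 0.50 in MGE WT and 0.11 in MGE KO. After 1 h the values were 1.90, 2.38, 0.87 and 0.40 in the same order. The 6 h response of Sox9 in MGE minus that in CTX was -1.89 ± 0.45 (adjusted p = 0.0074, limma). Slc2a1, the glucose transporter of brain endothelium that other cells also express, was higher by 1.01 ± 0.14 (adjusted p = 2.6e-05), and Cd44 by 0.77 ± 0.27 (adjusted p = 0.026). The Slc2a1 difference was 1.94 in CTX WT, 0.92 in CTX KO, 0.85 in MGE WT and 0.31 in MGE KO, where it did not pass. Its response in MGE minus that in CTX was -0.85 ± 0.28 (adjusted p = 0.04, limma).

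Npas4 genotype gave no call among the 9 genes in any comparison, as it gave few among all genes: 0.0162% of genes tested in MGE and 0.00808% in CTX over the 3 times. At single times, all genes gave 0% (0 h), 0.0242% (1 h) and 0.0323% (6 h) in MGE and 0%, 0.00808% and 0.0485% in CTX, and the lowest adjusted p of a member was 0.33. Dcn came nearest in CTX, where its values above were 7.55 to 9.23 in KO and 9.32 to 10.18 in WT, with no overlap between 6 arrays each. The difference was -1.23 ± 0.26, with a 95% interval of -1.79 to -0.67, an unadjusted p of 3.0e-04 and an adjusted p of 0.23 (limma). Taken by time, it was -1.23 (0 h), -1.32 (1 h) and -1.14 (6 h). For comparison, 0.162% of all genes tested had CTX KO and CTX WT arrays that did not overlap, 0.105% lower in KO. The mean level of the fibroblast list was 6.46 to 8.31 on CTX KO arrays and 6.44 to 8.82 on CTX WT arrays, and its part in the Dcn values was not tested.

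In CTX, 25 of the 27 differences of the 9 genes at the 3 times were below 0, among them Aqp4 with -0.66 ± 0.33, Aldh1l1 with -0.47 ± 0.32 and Gfap with -0.40 ± 0.31 on average (adjusted p = 1 each, limma). The 27 values are not independent of each other, as the 9 genes were read on the same arrays and several ran together. The median of the averaged differences was -0.33 over the 9 genes and -0.02 over all genes tested. In MGE, 14 of 27 were below 0 and 12 above, and Gfap stood at -0.65 ± 0.31 (adjusted p = 0.16), Cspg4 at -0.31 ± 0.12 (adjusted p = 0.11), Aqp4 at 0.41 ± 0.33 (adjusted p = 0.40) and Slc1a3 at 0.34 ± 0.20 (adjusted p = 0.26). Without repeat 1 of MGE WT at 0 h, which left 1 array in that group, Cspg4 stood at -0.43. One member had an unadjusted p under 0.05 in each culture type, against 3942 genes in MGE and 413 in CTX. The genotype difference in MGE minus that in CTX called 0 members, with 1.08 ± 0.37 for Dcn and 1.06 ± 0.46 for Aqp4 (adjusted p = 0.56 each) and 0% of all genes called. The 6 h response in KO minus that in WT also called 0 members, in MGE or in CTX, against 0% and 0.00808% of all genes. The 6 wider lists held 0 genes called for genotype in either culture type.

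**Figure D5:**
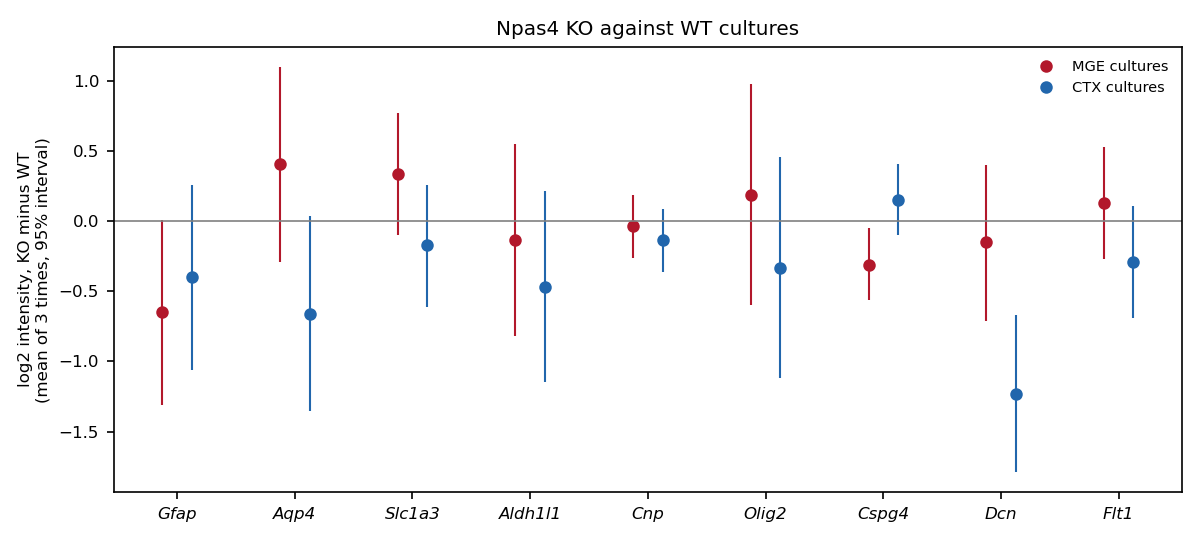
KO minus WT difference in log2 intensity for the 9 tested genes in MGE and CTX, averaged over the 3 times, with 95% intervals. Dcn in CTX lies at -1.23, the farthest from 0 of the values, and its adjusted p of 0.23 did not pass.

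The other probe sets agreed for some genes and not for others. The 10 genes had 27 probe sets. Of the 17 not used, 11 were above the array median on 0 arrays, among them all those of Aqp4, Aldh1l1, Cspg4, Dcn and Flt1, and 6 could be tested. Both other Cnp probe sets were higher in MGE, the brighter by 1.65 (adjusted p = 3.7e-11) and the dimmer by 0.22 (adjusted p = 0.0049), and both were lower after 6 h on average, at -0.25 (brighter, adjusted p = 0.033) and -0.26 (dimmer, adjusted p = 0.011, limma over all probe sets naming 1 gene). The second brightest Gfap probe set was at -0.21 (adjusted p = 0.51) between MGE and CTX. Slc1a3 was not settled: the next 2 probe sets by brightness were at 0.09 (adjusted p = 0.70) and 0.04 (adjusted p = 0.78), and the one after them, above the array median on 2 arrays, was lower in MGE at -0.98 (adjusted p = 3.9e-07). After 6 h, the same 2 were higher on average by 0.75 (adjusted p = 0.019) and 0.43 (adjusted p = 0.017), where the probe set used had 0.32 and did not pass.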

How the data were processed

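Expression in 24 samples was measured on Affymetrix mouse expression arrays from 100 ng of total RNA, amplified with NuGEN Ovation V2 per the labels. The deposited values are intensity on a linear scale (6.6074 to 29464, array medians 115 to 121), made with RMA per the submitters' processing notes. RMA's version is not given in the sources used here. RMA corrects background, equalizes the arrays' distributions and summarises probes, so shifts shared by all genes are removed.

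Of 45101 probe sets, 34958 named 1 gene, 932 several and 9211 none in the platform annotation. Those naming 1 gene covered 18194 genes, each read by its highest-mean probe set. Log2 intensity was fitted with limma 3.58.1 (R 4.3.3) over 12 group means, with 12 residual degrees of freedom and a prior of 2.408. A gene was tested when it lay above the array median on at least 2 arrays. Tests were two-sided, adjusted by Benjamini-Hochberg over 12378 genes in each of 24 contrasts, and called at an adjusted p under 0.05. The script was tested on simulated data. The number of arrays limits the precision.

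The 10 genes and the marker lists were chosen with earlier results of these data known. All 10 were named in every comparison, with the 3 genes most like each where described; of each other list, at most the 3 called genes with the largest difference were named, plus label checks. Dim genes named as defining a cell type were chosen after their values were seen. Alternatives covered the filter, cyclic loess, an offset of 32 before log2, array weights, the repeat number as a block, separate fits, second-highest probe sets and leaving out each array. Averages of arrays sharing a repeat, and leaving out MGE WT 0 h, were added after seeing the data. No promoter window was used for Dcn or Aqp4.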

Additional observations from a re-analysis of the deposited data

How the results depend on the processing

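Between MGE and CTX, 8 of 9 genes were called, against 81.6% of all genes tested. The count stayed at 7 to 8 when 1 array was left out, fell to 5 with 4 averaged values, and was 2 with second-highest probe sets: of the 3 genes with a second one that could be tested, Cnp alone, and Olig2, which has 1 probe set and kept it. In WT at 0 h, where the main fit called 4 genes against 64.2% of all genes tested, second-highest probe sets called 1, Cnp. Aldh1l1, Cspg4 and Dcn, also called there in the main fit, had no second probe set that could be tested. Cyclic loess moved the median of all genes between cultures to 0.06, against 0.10. In the main fit, 53.6% of all genes tested were called for the averaged 6 h response and 25.3% for that in MGE WT. The averaged 6 h response, with 1 call, had 0 with no filter, cyclic loess or array weights, 2 with second-highest probe sets (Slc1a3 and Cnp), and 0 to 2 when 1 array was left out. The 6 h response in MGE WT, also with 1, had 0 with no filter, cyclic loess, array weights, separate fits or second-highest probe sets, and 0 to 2 with 1 array left out. Leaving out 1 array gave 0 to 1 call for CTX KO at 6 h, KO in MGE on average and at 0 h, and the interactions of culture type with 6 h and with genotype, all 0 otherwise. No called value of the 9 genes changed sign in these alternatives, but Slc1a3 in WT at 0 h, not called, was -1.07 with the second-highest probe set, against 0.45, and a dimmer Slc1a3 probe set was called lower between MGE and CTX.

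The repeat numbers are shared by the groups, but the labels do not say that a number marks a shared culture. Repeat 2 minus repeat 1 correlated between groups at -0.23 to 0.86 in 15 MGE pairs (13 over 0.1), at 0.11 to 0.71 in 15 CTX pairs and at -0.39 to 0.20 in 36 pairs across cultures. With the repeat number of each culture type as a block, Gfap was also called between MGE and CTX (-0.44, adjusted p = 0.028), making 9 of 9, and Olig2 in WT at 0 h (0.94, adjusted p = 0.0025). Of all 12378 genes tested, the block called 10324 and 8582 in these comparisons. The averaged 6 h response and that in MGE WT each had 2 calls (Cnp and Olig2), that in MGE KO 1 (Olig2) and genotype in CTX 1 (Dcn, -1.23, adjusted p = 0.0055, limma). Here the block called 7240, 3781, 2637 and 9 of all genes tested, in that order. With the arrays of each repeat averaged into 8 values, genotype in CTX called 0 of the 9 genes.

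Counts over all genes changed by over 1.5 times in several settings. Without repeat 1 of MGE WT at 0 h, calls were 5248 after 6 h in MGE WT (against 3128), 1813 after 1 h there (against 71), 1013 after 1 h on average (against 591), 4741 for the interaction of culture type with 6 h (against 3132), 4429 for genotype in MGE (against 2), 3878 for it at 0 h (against 0), 1140 for its interaction with culture type (against 0) and 693 for that with 6 h in MGE (against 0). Without other single arrays, MGE WT had at least 1103 calls after 6 h and 21 after 1 h, MGE KO 1008 after 6 h (against 2118), and genotype in MGE reached 1792 without repeat 2 of MGE WT at 1 h. Genotype in CTX at 6 h had 129 without repeat 1 of CTX WT at 6 h, against 6. With array weights, MGE WT after 6 h had 958.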
